A study of Homo sapiens with 6 samples.

Results

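The genes described here are 10 of the Hippo pathway in TYK-nu, a human ovarian cancer line per the labels: the angiomotin family (AMOT, AMOTL1, AMOTL2), the coactivators YAP1 and WWTR1, the transcription factor TEAD1, the kinase LATS2, and the targets CCN1, CCN2 and ANKRD1. They were found by symbol among 62260 gene rows, each matching 1 row. AMOTL1 was chosen by its measured loss in the knockout against wild type, so its values are given as a description with no test, while the other 9 were taken as its pathway. The study compared a line in which ZNFX1, a gene for a helicase-like zinc finger protein of RNA sensing, had been knocked out (ZNFX1 KO, n = 3) with wild type cells (WT, n = 3). Both groups were grown in the same medium without drug and carry the same batch label. The labels name no second KO clone and do not say how the gene was disrupted, so ZNFX1 loss and anything else that sets the KO line apart cannot be told apart. They call the libraries biological replicates. Nothing further says that these came from separate cultures, so the p-values cover library-to-library spread, which may be technical.

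In the Hippo pathway a kinase relay ends in LATS1 and LATS2, which phosphorylate the coactivators YAP1 and TAZ (the product of WWTR1) and so keep them out of the nucleus. When the relay is off, both coactivators enter the nucleus, bind TEAD factors and raise genes such as CCN1, CCN2, ANKRD1, AMOTL2 and LATS2, the last pair of which restrain YAP1 in turn. Angiomotins are junction and actin scaffold proteins that bind YAP1 through PPxY-type motifs and hold it in the cytoplasm. AMOT was first described in endothelial cells, and YAP1 activity has been studied in ovarian cancer as a driver of growth.

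TEAD factors bind a short element, GGAATG or its reverse complement CATTCC. It was searched on both strands of the promoters, each 300 bases long and reaching 250 bases upstream and 50 downstream of a RefSeq gene start (GRCh38.p14), of which the table had an entry for 8 of the 10 genes. A match is a description and not a site. At least 1 match is present in 14.0% of all 35116 promoters, at least 2 in 1.37% and at least 3 in 0.128%. The CCN2 promoter (chr6:131951323-131951622, minus strand) has 3 matches, which begin 169, 104 and 95 bases before the start and do not overlap. The ANKRD1 promoter (chr10:90921038-90921337, minus strand) has 2, beginning 220 and 128 bases before the start. AMOTL2 has 1 entry with a match 69 bases before the start (chr3:134374398-134374697, minus strand). CCN2 and ANKRD1 are shown because these targets with matches lie at opposite ends of the measured range, AMOTL2 as the paralogue that dominates the angiomotin family here, and beside them the AMOTL1 promoter (chr11:94768106-94768405, plus strand, 0 matches), whose gene was nearly silent in the KO. Capitals mark the matches.
CCN2: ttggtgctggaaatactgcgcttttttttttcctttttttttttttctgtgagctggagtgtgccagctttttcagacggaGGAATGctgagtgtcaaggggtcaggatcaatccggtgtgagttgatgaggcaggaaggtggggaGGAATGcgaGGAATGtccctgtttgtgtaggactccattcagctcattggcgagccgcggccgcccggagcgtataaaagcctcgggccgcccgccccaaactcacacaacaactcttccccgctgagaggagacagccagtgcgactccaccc
ANKRD1: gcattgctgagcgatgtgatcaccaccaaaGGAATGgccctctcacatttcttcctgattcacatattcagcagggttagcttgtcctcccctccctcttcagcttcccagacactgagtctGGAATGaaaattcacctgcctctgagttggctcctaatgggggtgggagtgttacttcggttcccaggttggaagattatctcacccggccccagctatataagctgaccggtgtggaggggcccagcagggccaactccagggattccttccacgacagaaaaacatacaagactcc
AMOTL2: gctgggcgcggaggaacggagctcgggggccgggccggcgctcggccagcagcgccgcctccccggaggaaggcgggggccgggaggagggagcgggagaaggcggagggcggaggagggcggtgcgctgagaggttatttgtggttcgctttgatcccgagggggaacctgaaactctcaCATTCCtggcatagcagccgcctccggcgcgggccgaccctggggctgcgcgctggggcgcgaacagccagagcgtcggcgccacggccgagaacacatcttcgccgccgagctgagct
AMOTL1: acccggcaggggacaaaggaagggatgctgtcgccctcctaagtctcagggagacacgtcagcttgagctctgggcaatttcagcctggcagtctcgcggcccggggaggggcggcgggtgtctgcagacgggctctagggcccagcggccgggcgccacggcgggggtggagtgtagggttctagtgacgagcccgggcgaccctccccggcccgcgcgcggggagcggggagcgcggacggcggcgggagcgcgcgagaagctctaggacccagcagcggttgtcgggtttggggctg
YAP1 also has 1 match, 162 bases before its start, and LATS2 has 1 match just downstream of its start, while WWTR1 and AMOT have 0. The AMOTL1 and WWTR1 entries lie inside the annotated genes, so sequence at the outermost annotated starts of this pair was not searched.

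Depth ran from 21413002 assigned fragments (WT 2) to 23494771 (WT 3). The targeted gene ZNFX1 was at 103, 70.5 and 75.2 CPM (gene fragments scaled to a common library size, after TMM) in ZNFX1 KO 1, 2 and 3, and at 130, 208 and 109 CPM in WT 1, 2 and 3. The groups did not overlap, but the log2 fold change of -0.85 (SE 0.27) missed the threshold (edgeR adjusted p = 0.218, exact two-sided permutation p = 0.1, the smallest that 3 against 3 libraries allow). A knockout need not lower its own mRNA, so this checks the labels only in part. Of the markers of the labelled tissue, KRT18 and MECOM were well measured, while 7 of 13 stayed under 1 CPM in all 6 libraries, PAX8, MUC16 and MSLN among them. KRT18 was at 185.5, 121 and 147 CPM in the KO and 108, 82.9 and 118 CPM in WT. Its groups overlapped in TPM only. EPCAM had 0 reads in every KO library and 31, 34 and 5 in WT. KRT8 averaged 14.75 CPM in the KO and 24.43 CPM in WT, with overlap. EPCAM and KRT8 were chosen after their values were seen. Of 4 tested markers 3 had a positive log2 fold change, against 48.8% of all tested genes. The endothelial markers CDH5 and TIE1 averaged 529 ± 82.8 and 534 ± 70.6 CPM in the KO, and 470 ± 42.4 and 511 ± 126 CPM in WT (SD, n = 3 each), with CLDN5 at 1 read in all. EGFL7, the most abundant endothelial marker by TPM, was at 211, 262 and 358 CPM in the KO and 142, 145 and 203 CPM in WT. EGFL7 and ERG, each higher in the KO, were the 2 of 9 tested endothelial markers without overlap in CPM, against 20.2% of all tested genes. Both overlapped in TPM. CDH5 and ERG were chosen after their values were seen. Summed CPM of the 10 endothelial markers was 1987 to 2346 in the KO and 1727 to 2094 in WT. Of 10 leukocyte markers 8 had gene rows under 1 CPM and 6 had gene rows at 0 in all libraries, PTPRC among them. CSF1R, another of these, had fragments on transcript rows joined to it. CD68, a lysosomal protein of macrophages and other cells, averaged 219 ± 51.4 CPM in the KO and 335 ± 134 CPM in WT, and LYZ, lysozyme, 4.68 ± 3.01 CPM in the KO and 1.43 ± 1.24 CPM in WT (SD, n = 3 each). Only LYZ of this pair had groups that did not overlap in CPM, and in TPM its groups overlapped. The summed CPM of the leukocyte list was 173 to 281 in the KO and 213 to 479 in WT. For fibroblasts, 7 of 8 markers were under 1 CPM. The exception, THY1, averaged 93.7 ± 4.76 CPM in the KO and 81.8 ± 4.1 CPM in WT (SD, n = 3 each). Its groups did not overlap in CPM, as in 20.2% of all tested genes, but overlapped in TPM. The part of these marker levels in the results was not tested.

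AMOTL1 (ENSG00000166025.18, chromosome 11, 94706431 to 94876753, plus strand, GRCh38), the angiomotin-like scaffold of tight junctions, was nearly absent from the KO. It had 16 reads in ZNFX1 KO 1 and 0 in ZNFX1 KO 2 and 3, against 198, 277 and 284 reads in WT 1, 2 and 3. These are 0.777, 0 and 0 CPM in the KO and 10.1, 14.0 and 12.9 CPM in WT. ZNFX1 KO 1 alone held transcript, at 6.29% of the WT mean, and its 16 reads have an exact 95% Poisson interval of 9.15 to 26.0. Against a floor of 3 counts per library, the higher of their floors taken, ZNFX1 KO 2 and 3 were at least 78.96-fold lower than the WT mean. Intervals and floors cover counting error only. The fitted log2 fold change of -5.51 (SE 0.88) depends on the prior count, and was -10.95 without ZNFX1 KO 1. In RNA of whole cultures, fewer cells with a transcript and less transcript per cell cannot be told apart.

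**Figure D1:**
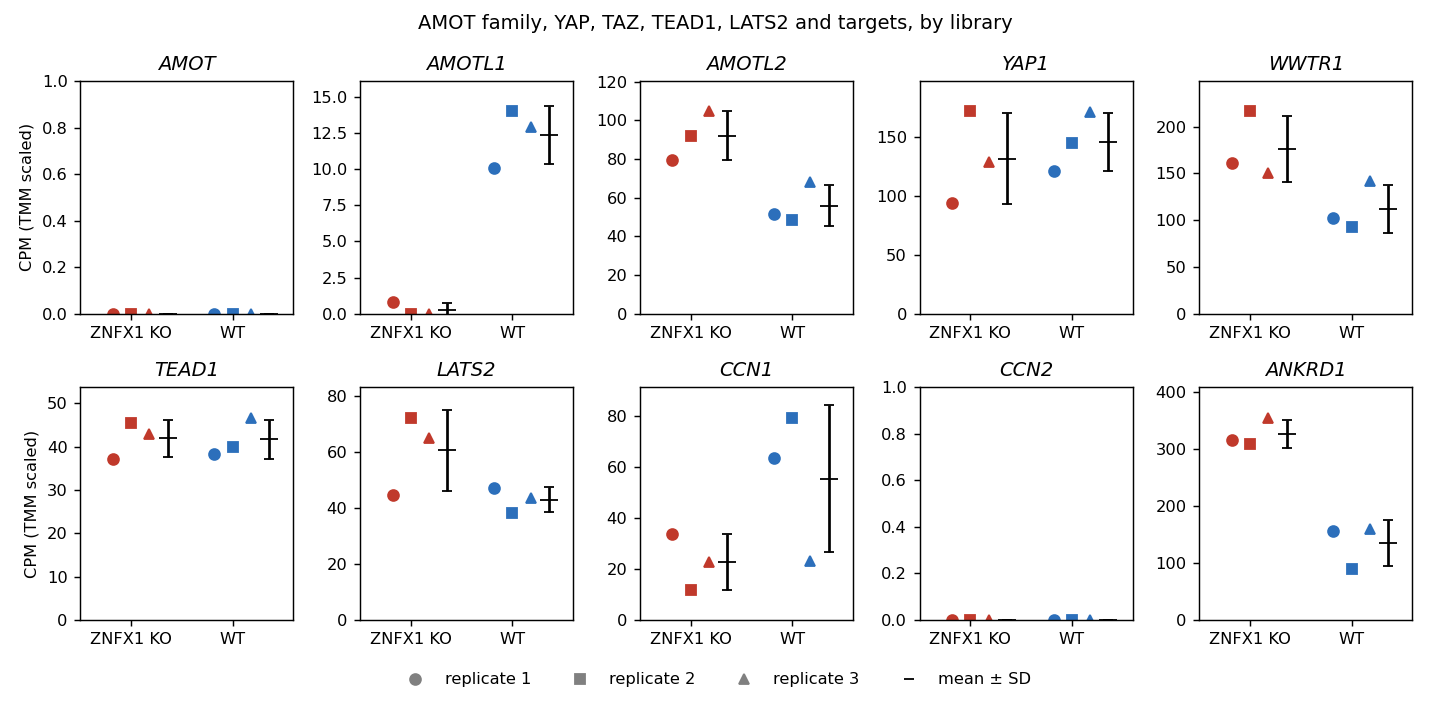
CPM after TMM scaling (y axes, linear and from 0, a scale per gene) of each of the 10 genes in the ZNFX1 KO (red) and WT (blue) libraries, with replicates as symbols and the mean ± SD (n = 3) beside them. AMOTL1 is at or near 0 in the KO, ANKRD1, AMOTL2 and WWTR1 lie above WT without overlap, and AMOT and CCN2 are at 0 in all libraries.

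The expressed genes around AMOTL1 kept their reads in the KO. The nearest tested gene upstream, FUT4, a fucosyltransferase, was at 4.27, 8.27 and 6.73 CPM in the KO and 4.34, 4.199 and 3.97 CPM in WT. The nearest downstream, CWC15, a spliceosome protein, was at 20.3, 26.1 and 28.2 CPM in the KO and 27.7, 22.1 and 29.4 CPM in WT. PIWIL4 shares the annotated start of FUT4, ends nearer to AMOTL1 and was not tested. It was at 0.194, 0.302 and 0 CPM in the KO and at 0 in WT. Of the 5 protein-coding genes on each side, 6 were tested, with log2 fold changes between -0.33 and 0.62, and 0 passed (edgeR quasi-likelihood test). ANKRD49 was among them, at 6.70, 7.76 and 6.42 CPM in the KO and 9.35, 8.14 and 8.62 CPM in WT, without overlap. These neighbours were looked at after the values of AMOTL1 were known. Among the 3 AMOTL1 transcript rows listed apart from the gene row, 1 read was found in WT 2 and 0 elsewhere, so 99.9% of its reads were in the gene row. Antisense genes over AMOTL1 had at most 0.0506 CPM.

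**Figure D2:**
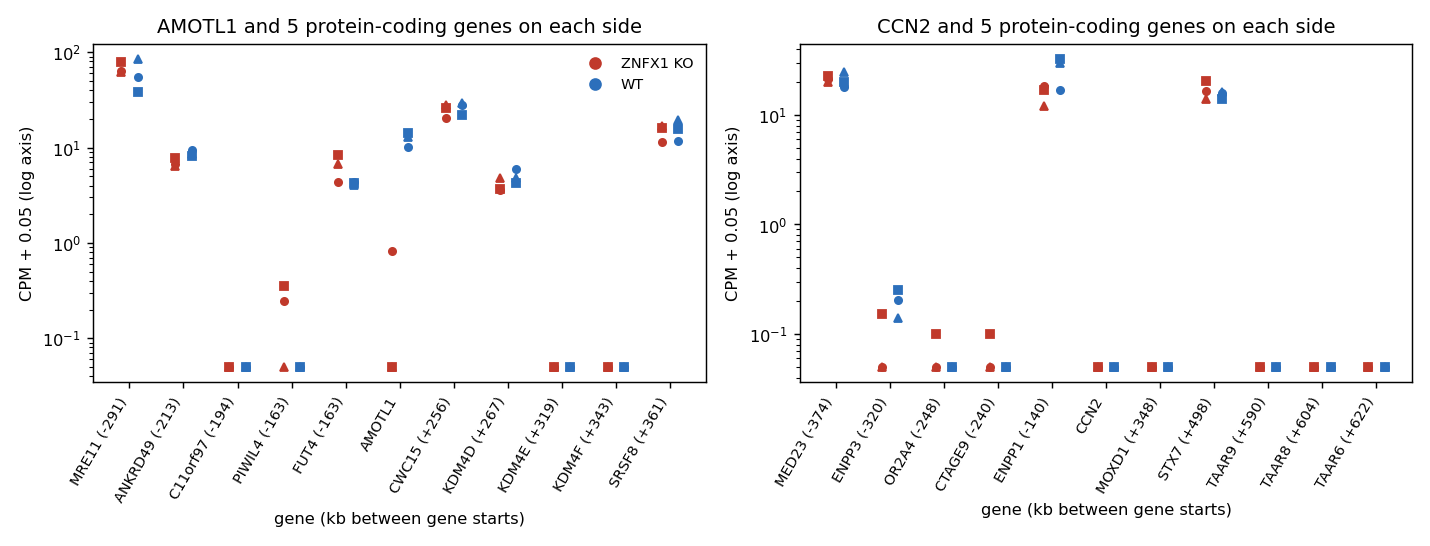
CPM + 0.05 (y axes, log scale) of AMOTL1 (left) and CCN2 (right) with the 5 annotated protein-coding genes on each side, in ZNFX1 KO (red) and WT (blue) libraries, symbols marking replicates as before and numbers giving the distance between gene starts in kb. AMOTL1 is at or near the floor in the KO, ANKRD49 is slightly lower there without overlap (log2 fold change -0.32, not past the threshold), while CCN2 is at the floor in both groups between expressed ENPP1 and STX7.

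Likeness was measured over 10050 tested protein-coding genes whose mean log2-CPM reached 2. TAL1, a haematopoietic transcription factor, had the pattern most like AMOTL1 over the 6 libraries (Pearson r = 0.999 of log2-CPM, given as a description). TAL1 was at 0.583, 0 and 0 CPM in the KO and at 9.45, 13.4 and 10.5 CPM in WT. VPS35L, a subunit of an endosomal recycling complex, was also lower in every KO library, at a higher level (r = 0.992). It was at 4.27, 2.32 and 2.03 CPM in the KO and 17.6, 17.3 and 16.7 CPM in WT. The order within WT was not alike, as WT 1 was highest for VPS35L and lowest for AMOTL1. The other 3 of the nearest 5 genes, TMEM51, PITHD1 and TPST2 (r between 0.990 and 0.994), had much smaller differences, with log2 fold changes between -0.51 and -0.40. In all 5 genes ZNFX1 KO 1 was the highest KO library. The 6 libraries are also those of the comparison that picked AMOTL1, so any gene lost in the KO scores high.

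AMOTL2 (ENSG00000114019.15, chromosome 3, 134355874 to 134375479), the paralogue that is itself a YAP1 target, was at 79.3, 91.9 and 105 CPM in the KO and at 51.6, 48.3 and 68.0 CPM in WT. Every KO library was above every WT library, with WT 3 nearest to the KO. The means were 92.0 ± 12.7 CPM in the KO and 55.9 ± 10.6 CPM in WT (SD, n = 3 each), and the log2 fold change of 0.72 (SE 0.19) did not pass (edgeR adjusted p = 0.159). AMOT (ENSG00000126016.17, chromosome X, 112774503 to 112840815), the founding member of the family, had 0 fragments in all 6 libraries. A count of 0 allows at most 3 reads, or 0.137 to 0.157 CPM in a library. Of the 10 protein-coding genes around AMOT, 5 were at 0 in all libraries too.

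Per length, AMOTL2 made up most of the family's transcripts in both groups. Summed over the family, TPM (abundance scaled by transcript length) was 11.05, 15.7 and 15.4 in the KO and 7.72, 7.60 and 13.0 in WT. AMOTL1 gave 0.482%, 0% and 0% of this sum in the KO and 8.74%, 12.3% and 8.499% in WT. The family sum averaged 14.0 ± 2.59 TPM in the KO and 9.44 ± 3.08 TPM in WT, with ZNFX1 KO 1 below WT 3. Thus the level of AMOTL1 in WT was small beside that of AMOTL2. The family sum of ZNFX1 KO 2 and 3 was above that of every WT library. AMOTL2 itself did not pass the threshold, and its TPM overlapped between groups.

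**Figure D3:**
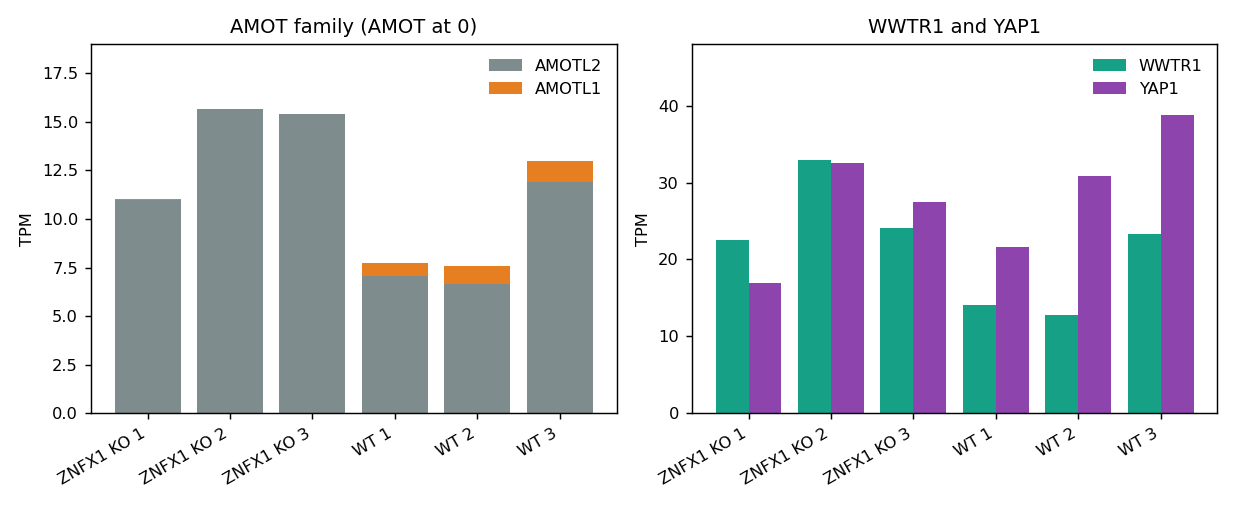
TPM (y axes, linear and from 0) per library, ZNFX1 KO left of WT, of AMOTL2 with AMOTL1 stacked on it (left) and of WWTR1 beside YAP1 (right). The AMOTL1 part is visible only in WT, and WWTR1 exceeds YAP1 in ZNFX1 KO 1 and 2 but in no WT library.

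Neither coactivator passed the threshold. WWTR1 (ENSG00000018408.15, chromosome 3, 149517235 to 149736714), which encodes TAZ, was at 161, 216 and 151 CPM in the KO and at 102, 92.7 and 141 CPM in WT. The groups did not overlap in CPM, though ZNFX1 KO 3 and WT 3 lay close. They overlapped in TPM, where WT 3 (23.25) was above ZNFX1 KO 1 (22.56). The log2 fold change of 0.65 (SE 0.22) did not pass (edgeR adjusted p = 0.249). YAP1 (ENSG00000137693.14, chromosome 11, 102110461 to 102233423) was at 94.5, 172 and 129 CPM in the KO and at 121, 145 and 171 CPM in WT. These ranges overlapped widely, and the log2 fold change was -0.15 (SE 0.24; adjusted p = 0.790 by edgeR) but 0.045 without ZNFX1 KO 1. The ratio of WWTR1 to YAP1 TPM was 1.33, 1.01 and 0.876 in the KO and 0.651, 0.413 and 0.600 in WT, so that each KO ratio was above each WT ratio. Their summed TPM overlapped, at 52.2 ± 13.0 in the KO and 47.1 ± 13.5 in WT (SD, n = 3 each).

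Part of the WWTR1 reads lay outside its gene row. Of all its reads, 87.7% were in the gene row, and WWTR1-205, a transcript annotated for nonsense-mediated decay, had 312, 295 and 251 fragments in the KO and 165, 136 and 345 in WT. The YAP1 gene row held 93.5% of its reads. Its mean transcript length, which moves with the mix of isoforms, was 3489, 4004 and 3136 bases in the KO and 3428, 2920 and 3490 bases in WT, again overlapping. For AMOTL2 82.3% of the reads were in the gene row, and most of the others were on the retained-intron transcript AMOTL2-207, with 284, 295 and 403 fragments in the KO and 236, 251 and 319 in WT.

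TEAD1 (ENSG00000187079.20, chromosome 11, 12674591 to 12944483), the DNA-binding partner of both coactivators, was at 37.1, 45.6 and 43.0 CPM in the KO and at 38.4, 39.9 and 46.7 CPM in WT. The means were nearly equal (41.9 ± 4.33 CPM in the KO and 41.7 ± 4.46 CPM in WT), edgeR gave a log2 fold change of 0.01 (SE 0.17, adjusted p = 0.985), and its sign turned with the setting. LATS2 (ENSG00000150457.9, chromosome 13, 20973032 to 21061547), the kinase that inhibits YAP1 and is also one of its targets, was at 44.5, 72.3 and 65.0 CPM in the KO and at 47.1, 38.3 and 43.5 CPM in WT. ZNFX1 KO 1 stood with the WT libraries, and the log2 fold change of 0.49 (SE 0.21) did not pass (edgeR adjusted p = 0.320).

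The 3 classical targets in the set were ANKRD1, CCN1 and CCN2. ANKRD1 (ENSG00000148677.7, chromosome 10, 90912096 to 90921276), an ankyrin repeat protein of muscle and stressed cells, was at 316, 309 and 355 CPM in the KO and at 155, 88.9 and 160 CPM in WT. The KO libraries lay close together, all above WT, and WT 2 was the lowest. The means of 327 ± 25.1 CPM in the KO and 135 ± 39.9 CPM in WT (SD, n = 3 each) differed 2.42-fold, with a log2 fold change of 1.28 (SE 0.24) just outside the threshold (edgeR adjusted p = 0.0636). Over 17 alternatives its log2 fold change lay between 1.05 and 1.44. It passed with the DESeq2 Wald test (adjusted p = 7.4e-05), with transcript rows joined (0.0427), with no filter (0.00226) and without WT 3 (0.0241).

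CCN1 (ENSG00000142871.18, chromosome 1, 85580761 to 85583962), the matricellular protein also called CYR61, was lower on average in the KO. It was at 33.9, 11.6 and 22.9 CPM in the KO and at 63.8, 79.5 and 23.3 CPM in WT. WT 3 stood within the KO range, WT 1 and 2 above it. The log2 fold change was -1.28 (SE 0.49) and did not pass (edgeR adjusted p = 0.284), while without WT 3 it was -1.63 and passed (adjusted p = 0.0387). The ratio of ANKRD1 to CCN1 TPM was 12.2, 34.4 and 20.2 in the KO and 3.16, 1.45 and 8.98 in WT, without overlap.

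CCN2 (ENSG00000118523.6, chromosome 6, 131948176 to 131951373), the connective tissue growth factor gene and the most used readout of YAP1 activity, had 0 fragments in all 6 libraries. The floor of 3 counts allows at most 0.157 CPM in any KO library and 0.153 CPM in any WT library. Its promoter holds the 3 sequence matches printed above, and that of ANKRD1, the highest of the 10 genes, holds 2. Whether any match is bound or bears on these levels was not tested, and CCN1 had no promoter entry. The genes next to it were read: ENPP1, an ectonucleotidase, was at 18.3, 16.8 and 12.1 CPM in the KO and 16.7, 32.1 and 30.05 CPM in WT, and STX7, an endosomal syntaxin, at 16.5, 20.5 and 14.0 CPM in the KO and 15.9, 14.0 and 16.1 CPM in WT. MOXD1, between CCN2 and STX7, was at 0 in all libraries. Of 19795 protein-coding rows, 22.1% were at 0 in all 6 libraries. The gene rows of CCN3, CCN4, CCN5 and CCN6, looked at after these values were seen, were at 0 as well. CCN1 was thus the only gene row of its family with reads, but CCN5 and CCN6 had fragments on transcript rows joined to them. A further 31388 transcript rows could be joined to no gene, and whether any belongs to CCN2 or AMOT was not tested.

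Ordered by TPM, ANKRD1 was highest in both groups, at 131 ± 13.0 in the KO and 54.0 ± 21.2 in WT (SD, n = 3 each). In the KO it was followed by WWTR1 (26.5 ± 5.60) and YAP1 (25.7 ± 7.99), which did not differ beyond their spread, then AMOTL2 (14.0 ± 2.62), then LATS2 (7.45 ± 2.43) and CCN1 (6.81 ± 2.77), again within their spread, and TEAD1 (3.46 ± 0.559). In WT, YAP1 (30.4 ± 8.57) came before WWTR1 (16.7 ± 5.71) and CCN1 (15.98 ± 7.04), and AMOTL2 (8.54 ± 2.92), LATS2 (5.12 ± 0.953), TEAD1 (3.32 ± 0.971) and AMOTL1 (0.906 ± 0.217) followed. By these means CCN1 stood with WWTR1 in WT and with LATS2 in the KO. In WT 3, however, CCN1 was at 8.28 TPM, nearer to LATS2 (6.08 TPM) than to WWTR1 (23.25 TPM).

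Of the 10 genes 8 passed the filter on low counts. AMOTL1 passed it through WT alone, and AMOT and CCN2 did not pass. At the threshold of 0.05 on edgeR's adjusted p, 0 of the 7 tested genes other than AMOTL1 were called, where 103 of all 14166 tested genes were (0.727%; 0.268% higher and 0.459% lower in the KO). The call over all genes rested on single libraries: on leaving out WT 1, 0.164% of them passed. The share was 0.393% when WT 2 was dropped and 9.02% when WT 3 was. It was 0.751%, 0.0137% and 0.0477% when ZNFX1 KO 1, 2 or 3 was the library left out. At an unadjusted p under 0.05 stood 5 of the 7, against 15.1% of all tested genes. ANKRD1, AMOTL2, WWTR1 and LATS2 were higher in the KO (4 of 7, against 5.92%) and CCN1 lower (1 of 7, against 9.19%). DESeq2 called 2 (ANKRD1 and AMOTL2; 4.09% of all genes), joined transcript rows and no filter 1 each (ANKRD1; 1.27% and 2.11%), and limma-voom 0 (0.536%). With 0 of the 7 called, the other fits called 0.671% of all genes (DESeq2 size factors), 0.784% (library totals), 0.565% (effective length), 0.806% (stricter filter), 0.466% (limma on log2(TPM + 0.1)) and 0.339% (limma on log2(TPM + 1)). In CPM the groups of 3 of the 7 did not overlap, against 20.2% of all tested genes. In all 3 the KO was higher, against 9.39%. In TPM AMOTL2 and WWTR1 overlapped, and only ANKRD1 of these 3 did not. The share of all tested genes without overlap in TPM was not taken. Without WT 3, 4 of the 7 were called, ANKRD1, AMOTL2 and WWTR1 as higher and CCN1 as lower, against the 9.02% above. These genes were chosen with earlier results of these data known, so the counts are descriptions.

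**Figure D4:**
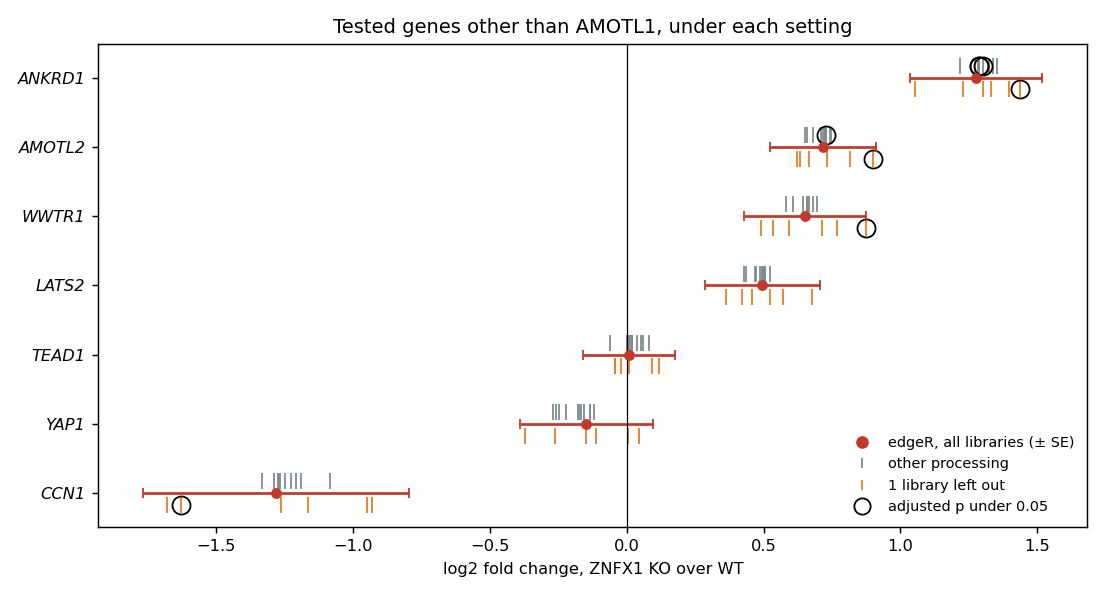
Log2 fold change of ZNFX1 KO over WT (x axis) of the 7 tested genes other than AMOTL1, from edgeR with all libraries (red, ± SE), under other processing (grey ticks) and with 1 library left out (orange ticks), with circles where the adjusted p was under 0.05. ANKRD1, AMOTL2, WWTR1 and LATS2 stay above 0 and CCN1 below it, while TEAD1 and YAP1 lie across 0.

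Other genes of the pathway were read as 6 lists of 89 genes, of which 77 were tested. Of these 0 rose and 1 fell (1.30%, against 0.727% of all tested genes), and 15.6% had an unadjusted p under 0.05, against 15.1%. The median log2 fold change was 0.09 over the lists and -0.01 over all tested genes. Of all tested genes 48.8% had a positive log2 fold change, 20.2% had groups that did not overlap, 4.09% were called by DESeq2 and 0.536% by limma-voom, and each list's counts stand against these shares. The gene that fell was FOXF2, a forkhead transcription factor of mesenchyme and a listed YAP1 target, with 1, 0 and 0 reads in the KO and 11, 20 and 27 reads in WT. Its fitted log2 value of -5.36 (SE 0.81; adjusted p = 0.0291 by edgeR) depends on the prior count, FOXF2 passed the filter through WT alone, and the call was lost on leaving out WT 1 (adjusted p = 0.0845), WT 2 (0.0700), ZNFX1 KO 1 (0.0593), ZNFX1 KO 2 (0.196) or ZNFX1 KO 3 (0.191), within 8.7e-04 to 0.196 over the alternatives.

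Among the kinases and upstream regulators 0 of 19 passed (4 at an unadjusted p under 0.05, 1 by DESeq2, 0 by limma-voom), with a median log2 fold change of 0.17 and 13 positive values, against 48.8% positive over all tested genes. MAP4K4, a kinase that feeds LATS activation, was the most abundant, at 802, 2428 and 1971 CPM in the KO and 1132, 1143 and 788 CPM in WT. ZNFX1 KO 1 stood with WT 3, and edgeR gave 0.76 on the log2 scale (SE 0.37, adjusted p = 0.374). MOB1A, the activating subunit of LATS kinases, averaged 289 ± 37.3 CPM in the KO and 199 ± 54.6 CPM in WT (log2 fold change 0.54, SE 0.23, edgeR adjusted p = 0.318). In 3 of the 19 the groups did not overlap in CPM, against 20.2% of all tested genes. These were NF2, the junction protein merlin that recruits LATS, WWC1, the KIBRA scaffold, and AJUBA, a LIM protein that binds LATS, named after their values were seen. NF2 was at 115, 115 and 148 CPM in the KO and 56.3, 51.8 and 99.6 CPM in WT (log2 fold change 0.86, SE 0.27, edgeR adjusted p = 0.204). WWC1 was at 10.7, 5.80 and 5.69 CPM in the KO and 2.86, 3.44 and 3.83 CPM in WT (log2 fold change 1.13, SE 0.32, edgeR adjusted p = 0.176), with only 60.03% of its reads in the gene row. AJUBA was at 24.6, 27.0 and 30.7 CPM in the KO and 19.1, 19.3 and 20.0 CPM in WT (log2 fold change 0.49, SE 0.17, adjusted p = 0.244 by edgeR). In TPM, NF2 and AJUBA overlapped between groups and WWC1 did not. The core kinases LATS1 and STK3 were at 0.17 (SE 0.22) and -0.23 (SE 0.18).

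Of the other TEAD and VGLL genes 4 of 7 were tested and 0 passed (1 at an unadjusted p under 0.05, 0 by DESeq2 or limma-voom). TEAD4 averaged 43.3 ± 8.56 CPM in the KO and 29.8 ± 4.46 CPM in WT (log2 fold change 0.54, SE 0.20, edgeR adjusted p = 0.285), and TEAD2 47.0 ± 5.26 CPM in the KO and 44.5 ± 1.78 CPM in WT (0.08, SE 0.16). The gene rows of VGLL1, VGLL2 and VGLL3, cofactors that compete with YAP1 for TEADs, were at 0 in all libraries. VGLL3 did have fragments on transcript rows joined to it, outside the gene row. Among 17 further YAP1 and TAZ targets, taken from a published signature, 14 were tested. FOXF2 was the 1 that passed (5 at an unadjusted p under 0.05, against 15.1% of all tested genes; 3 by DESeq2, against 4.09%; 1 by limma-voom). The median was 0.23, and 10 values were positive, against 48.8% of all tested genes. The list was chosen with earlier results known, so these counts are descriptions. NT5E, the ecto-nucleotidase CD73, chosen after its values were seen, was at 110, 109 and 101 CPM in the KO and 51.8, 72.1 and 45.2 CPM in WT. Its groups did not overlap, and its log2 fold change of 0.92 (SE 0.20) missed the threshold (edgeR adjusted p = 0.0966) and passed in 4 of 17 alternatives (DESeq2, no filter, without WT 2, without WT 3). GADD45A, a stress-response protein and likewise chosen afterwards, followed the pattern of CCN1, at 25.0, 21.6 and 20.6 CPM in the KO and 49.2, 73.6 and 24.7 CPM in WT (log2 fold change -1.13, SE 0.35, edgeR adjusted p = 0.203), with WT 3 again next to the KO. It passed in 3 of 17 alternatives (adjusted p = 0.0397 with DESeq2, 0.0316 with no filter and 0.0163 without WT 3).

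Partners of angiomotins, the polarity and junction proteins and ubiquitin ligases that bind or turn them over, had 15 of 19 genes tested and 0 that passed (1 at an unadjusted p under 0.05, 0 by DESeq2 or limma-voom), with a median of 0.05. PARD3, the polarity scaffold, was at 82.2, 68.0 and 73.6 CPM in the KO and 120, 154 and 87.5 CPM in WT, without overlap (log2 fold change -0.69, SE 0.22, edgeR adjusted p = 0.220). PLEKHG5, an activator of RhoA that angiomotin complexes carry, overlapped between groups (-0.19, SE 0.24). The STRIPAK phosphatase complex, which switches off the Hippo kinases, had 0 of 15 pass (0 at an unadjusted p under 0.05, 0 by DESeq2 or limma-voom), a median of -0.01 and values between -0.37 and 0.41, with its catalytic subunit PPP2CA at 0.30 (SE 0.19). Targets of SRF and its cofactors, the actin-regulated factors that also act on CCN1 and ANKRD1, had 0 of 10 tested genes pass (1 at an unadjusted p under 0.05, 0 by DESeq2 or limma-voom), with a median of 0.02 and TPM2, a tropomyosin, at 0.12 (SE 0.18).

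**Figure D5:**
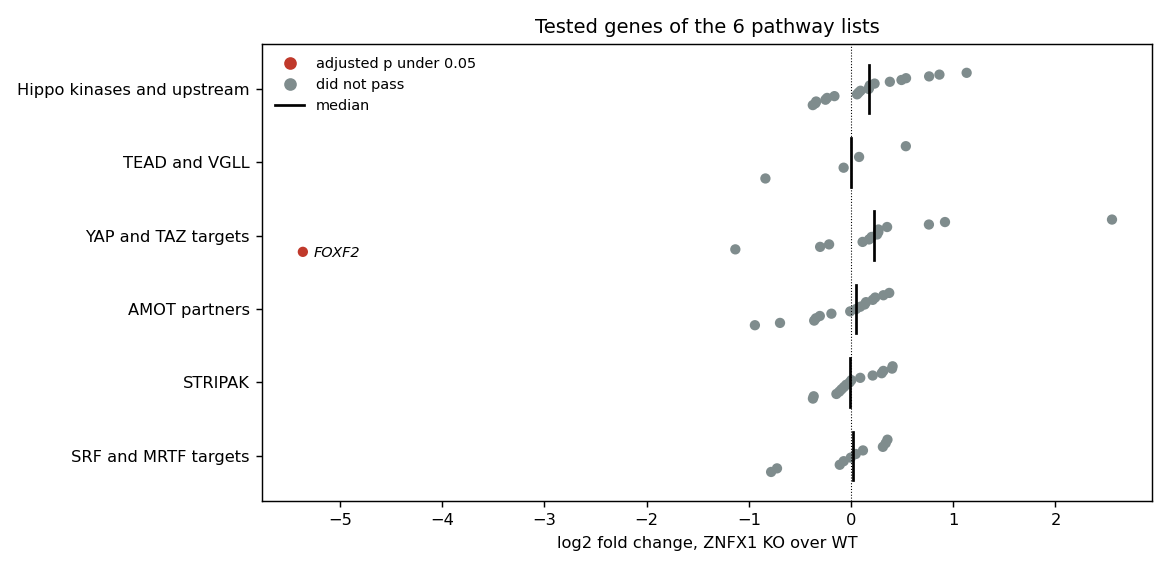
Log2 fold change of ZNFX1 KO over WT (x axis) of the 77 tested genes of the 6 pathway lists (rows), with the median of each list as a bar and genes past an adjusted p of 0.05 in red. FOXF2 is the 1 gene that passed, and the medians lie between -0.01 and 0.23.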

How the data were processed

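RNA of 3 ZNFX1 KO and 3 WT libraries were made with a stranded kit for total RNA, per the labels. The authors made, with Salmon, the deposited estimated counts of fragments and TPM values per gene, per the labels. The submitters' processing notes also name FastQC, Trimmomatic and DESeq2. Which build and annotation were used, and whether counting used strand, is not given in the sources used here. Each file has 62260 gene rows and 134909 transcript rows, which hold 9.93% to 10.7% of the fragments and stayed outside the main test; 103521 could be joined to a gene through GENCODE 29 (GRCh38), from which coordinates were taken.

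Estimated counts were rounded, filtered with filterByExpr (14166 genes), scaled by TMM (factors 0.958 to 1.04) and fitted with edgeR 4.0.16 (quasi-likelihood test, R 4.3.3), genotype as the only term, with Benjamini-Hochberg adjustment over all tested genes and a threshold of 0.05. The SE was taken as the size of the log2 fold change over the root of F. log2-CPM used a prior count of 2. Overlap of groups was judged on CPM unless TPM is named. The scripts were tested on simulated data.

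The members and lists were chosen with earlier results of these data known. Named were all members, ZNFX1, called list genes or up to 2 abundant members of a list with none called, and the 5 genes most correlated with AMOTL1. Others are said to be chosen afterwards. Abundant list genes whose sign turned with the setting, and the marker genes, were given no fold change. Alternatives were DESeq2 1.42.0 (on the kept genes), its size factors, library totals, 2 other filters, limma 3.58.1 (voom, log2(TPM + 1), log2(TPM + 0.1)), an effective length offset, the replicate block, joined rows and leaving out each library. No 2 libraries of a group were alike within sampling noise (lowest chi-square over its degrees of freedom 30.4). By this measure WT 3 was nearer to ZNFX1 KO 1 and 3 (55.4 and 56.7) than to WT 1 and 2 (70.4 and 128). Its value against ZNFX1 KO 2 was 73.6. The reason was not tested. Columns of per-sample values not used: 0.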

Additional observations from a re-analysis of the deposited data

How the results depend on the processing

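Genes called over the whole table numbered 103, and 579 with DESeq2, 187 with joined transcript rows, 66 and 48 with limma on log2(TPM + 0.1) and log2(TPM + 1), and 602 with no filter. Members called, AMOTL1 not counted, numbered 0, and 2 with DESeq2 (ANKRD1 and AMOTL2) and 1 with joined rows or no filter (ANKRD1). Pathway list genes called numbered 1, 4 with DESeq2 or no filter, and 0 with either limma fit on TPM or the stricter filter. Leaving out 1 library gave 2 to 1315 genes, 0 to 4 members and 0 to 5 list genes, and a log2 fold change of ZNFX1 between -1.03 and -0.53, called without WT 3. With 2 libraries in a group, the test leans on the spread of the others. The log2 fold change of YAP1 ranged from -0.37 to 0.045 without single libraries. That of TEAD1 was -0.060 with library totals and -0.044 to 0.12 without single libraries. Besides AMOTL1, the other 5 tested members kept their sign in the 17 alternatives. With the replicate block 14 genes, 0 members and 0 list genes were called. Same-numbered libraries deviated together with correlations of 0.129, -0.0405 and 0.00691, and not every library correlated best with its own number. The numbers were not used as pairs in the main test. Correlations this weak cannot tell whether libraries were prepared in pairs. Library totals moved the median log2 fold change of all genes to -0.08. The causes of these changes were not tested. Genes under about 0.15 CPM could not be told from 0 at this depth.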
